A study of Mus musculus with 9 samples.

Results

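Reactive gliosis was examined through 10 genes, *Gfap*, *Lcn2*, *Edn2*, *Serpina3n*, *Cp*, *Stat3*, *Socs3*, *Fgf2*, *Cebpd* and *Osmr*, in whole mouse retinas with and without a CreERT2 knock-in at *Rbpms*. They were taken as a fixed list of gene symbols. All 10 were listed in each of the 9 gene tables, among 25239 gene names, and all 10 passed the filter on low values (a mean of at least 1 TPM), as did 15198 genes in all. TPM is a level per length of the gene, scaled so that each library has the same total.

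The retinas came from mice on the C57BL/6J background at P42. There were 3 wild type (+/+), 3 heterozygous (Rbpms-CreERT2/+, written Cre/+) and 3 homozygous (Rbpms-CreERT2/CreERT2, written Cre/Cre) mice, and each library held the pair of retinas of 1 mouse. In the knock-in allele, a P2A-CreERT2 sequence made with CRISPR/Cas9 follows the last codon of RBPMS in frame, so that the inducible recombinase is made wherever *Rbpms* is, which in the retina is the retinal ganglion cell (RGC). The labels call the knock-in genotypes heterozygous and homozygous knockout. The sources used here state no tamoxifen for these 9 mice and no floxed allele. The comparison bears on the question of whether the knock-in allele disturbs the retina, since gliosis is a common response to damage.

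Gliosis is the response of the glia of the retina, above all the Müller cells that span it and the astrocytes of its inner surface, to injury or stress of the neurons. A well-known route runs through cytokines of the interleukin-6 family (LIF, CNTF, oncostatin M), which bind receptors that share the subunit gp130 (*Il6st*) and activate the transcription factor STAT3. STAT3 raises *Gfap* and also *Socs3*, which in turn blocks the receptor. In stressed retinas photoreceptors release the peptide endothelin 2 (*Edn2*), and the growth factor FGF2 rises with it. *Lcn2* and *Serpina3n* are used as general markers of reactive astrocytes.

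Aligned bases ranged from 4.05 to 4.65 gigabases per library. *Rbpms*, which carries the knock-in, was measured at 43.2, 38.4 and 43.4 TPM in +/+, 31.3, 32.2 and 33.1 TPM in Cre/+, and 19.7, 19.1 and 24.2 TPM in Cre/Cre, in the order of the labelled genotypes. The rod markers summed to 39358 to 47653 TPM and the Müller glia markers to 5267 to 6416 TPM, so the libraries carried the markers of neural retina, whereas *Pax2*, the defining marker of retinal astrocytes, was at 0.192 to 0.923 TPM. The libraries differed in other respects. The 7 lens markers summed to 1050.2 TPM in Cre/Cre replicate 2, to 14.0 TPM in Cre/+ replicate 2 and to 78.3 to 233 TPM in the other 7 libraries. The 6 pigment epithelium markers summed to 17.1 TPM (+/+ replicate 3) to 89.2 TPM (Cre/+ replicate 1), and the 6 blood markers to 164 to 252 TPM in +/+, 130 to 154 TPM in Cre/+ and 238 to 431 TPM in Cre/Cre. The part of such tissue in the values of the 10 genes was not tested. The ribosomal precursor Rn45s took 9.21% of the TPM of Cre/Cre replicate 1 and 0.0827% to 0.336% elsewhere, which lowers every other TPM in that library. *Xist*, the RNA that coats an inactive X chromosome, was at 516 to 585 TPM in 6 libraries (all 3 of +/+, Cre/+ replicates 1 and 2, Cre/Cre replicate 2) and at 2.08 to 3.16 TPM in the other 3 (Cre/+ replicate 3, Cre/Cre replicates 1 and 3). No +/+ library had low *Xist*, so the *Xist* level and the genotype are in part confounded. In whole tissue, fewer cells of a type and less RNA per cell cannot be told apart.

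The genes differed widely in level in the P42 retina. *Cp*, ceruloplasmin, a copper ferroxidase that helps iron leave cells, was the most abundant, at 89.0 to 131 TPM over the 9 libraries, above 88.9% of the tested genes. *Stat3* followed with 45.1 to 57.4 TPM and *Gfap*, the intermediate filament of astrocytes and of stressed Müller cells, with 27.5 to 45.6 TPM. *Edn2* was measured at 9.06 to 26.5 TPM, *Fgf2* at 8.17 to 17.3 TPM, *Cebpd* at 6.86 to 13.6 TPM and *Lcn2* at 4.61 to 10.1 TPM. At the low end stood *Osmr* with 4.59 to 6.34 TPM, *Serpina3n* with 3.35 to 7.61 TPM and *Socs3* with 2.19 to 5.72 TPM, the last above only 14.8% of the tested genes. The ranges of *Cp* and *Stat3* were separate, as were those of *Gfap* and *Edn2*, and the range of every other gene in this order overlapped that of the next. The read coverage behind the lowest of them was thin, between 2.75 and 7.93 reads over an average base of *Socs3*, against 69.4 to 129 for *Cp*.

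In mm10 coordinates, 3 of the 10 genes lie on the minus strand of chromosome 11, namely *Gfap* (chr11:102887336-102897200), *Stat3* (chr11:100886806-100939540) and *Socs3* (chr11:117966087-117969366). *Lcn2* (chr2:32384637-32387739) and *Osmr* (chr15:6813577-6874313) are also on minus strands. *Edn2* (chr4:120161206-120167360), *Serpina3n* (chr12:104406708-104414329), *Cp* (chr3:19957054-20009750), *Fgf2* (chr3:37348653-37404830) and *Cebpd* (chr16:15887286-15889545) are on plus strands. *Cp* overlaps *Hps3* on the other strand by 13806 bases, and *Cebpd* overlaps *Spidr* on the other strand by 321 bases; the libraries were strand-specific. The listed genes of the *Serpina3* cluster other than *Serpina3n* summed to 0.509 to 1.58 TPM. How far reads shared within the cluster enter the value of *Serpina3n* was not tested.

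Because *Gfap* and *Socs3* are known targets of STAT3, the promoter windows of RefSeq (GRCm38.p6, 250 bases before to 50 bases after each start) were searched for the STAT motif TTCNNNGAA, which reads the same on both strands. Of the 10 genes, 9 had a window, and *Cebpd* had none in the table used. The motif was found for *Gfap* and *Socs3* and for none of the other 7 genes with a window. Of all 32851 windows of 300 bases, 8.3% held it. The site of each is printed on the strand of its gene with the motif in capitals, since these 2 windows held it; that of *Gfap* (chr11:102897184-102897212) spans the start of the transcript, from position -2 to 7, and that of *Socs3* (chr11:117969462-117969570) lies from -154 to -146.
Gfap: atgggggtgcTTCCAGGAAgtcaggggca
Socs3: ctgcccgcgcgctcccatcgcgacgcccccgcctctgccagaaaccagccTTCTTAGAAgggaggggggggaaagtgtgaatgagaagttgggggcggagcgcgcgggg
The C/EBP motif TTGCNNAA, searched on both strands, was present in 10.8% of all windows. None of the windows of these genes held both motifs. The C/EBP motif was found in that of *Lcn2* (TTGCTCAA, from -216 to -209) and in 1 of 2 windows of *Cp* (TTTTGCAA, from -70 to -63). A match of letters does not show that a factor binds there.

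Genotypes were compared with limma on log2(TPM + 1), a scale that understates the change of low genes, and p-values were adjusted over all 15198 genes. None of the 10 genes passed an adjusted p of 0.05 in Cre/+ against +/+, in Cre/Cre against +/+, in Cre/Cre against Cre/+, in the test of any difference among the genotypes or in the trend over the count of knock-in alleles (0, 1 or 2). Over all genes, 0.00658% passed in each of the comparisons with +/+ and in the trend, and 0.0132% in the other 2. At an unadjusted p under 0.05, 1 of the 10 genes differed in Cre/+ (*Cp*, higher), where 10.7% of all genes did, 4.9% higher. In Cre/Cre, 1 of the 10 differed from +/+ (*Socs3*, lower), where 6.97% of all genes did, 5.39% lower. Between Cre/Cre and Cre/+, 2 of the 10 differed (*Serpina3n* and *Socs3*, lower), where 6.58% did, 4.2% lower. The counts were 2 of 10 among the genotypes as a whole (*Socs3* and *Serpina3n*, 8.63% of all genes) and 2 of 10 in the trend (*Socs3* and *Edn2*, both lower, where 6.24% of all genes differed, 4.82% lower). Whether counts of 1 or 2 among 10 genes differ from these shares was not tested.

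The log2 fold change was below 0 for 7 of the 10 genes in Cre/+, with a median of -0.16, where 49.6% of all genes were below 0 and their median was 0.00. It was below 0 for 7 of the 10 in Cre/Cre, with a median of -0.19 against -0.02 over all genes, of which 57.7% were below 0. In Cre/Cre against Cre/+ it was below 0 for 8 of the 10, and for 59.2% of all genes. The comparisons share libraries with each other. *Gfap*, *Edn2*, *Stat3*, *Socs3*, *Fgf2* and *Cebpd* were below 0 in all 3. The sign held under every alternative run for *Socs3* alone of these 6, and under at least 1 alternative it turned for *Gfap* and *Cebpd* between Cre/Cre and Cre/+, for *Stat3* and *Edn2* in Cre/+, and for *Fgf2* in all 3 comparisons. The standard error of a gene's fold change lay between 0.0956 for *Stat3* and 0.271 for *Edn2*, with a median of 0.106 over all tested genes, and it was above that median for 9 of the 10.

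**Figure D1:**
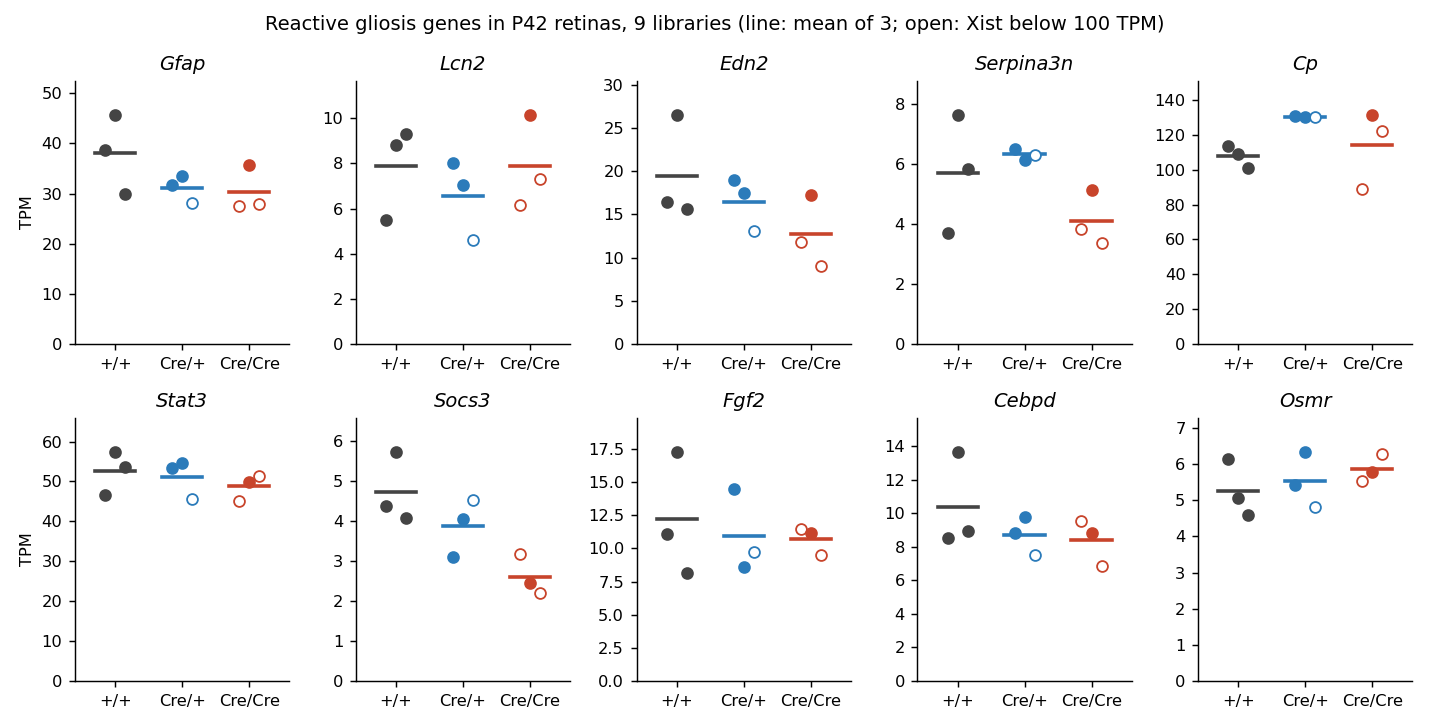
TPM of each of the 10 genes in the 9 libraries, by genotype on the horizontal axis. Filled points are libraries with *Xist* at 516 TPM or more, open points those with 3.16 TPM or less, and lines are the means of 3. The 3 Cre/Cre points of *Socs3* lie below the 3 points of +/+, and the 3 Cre/+ points of *Cp* lie above them.

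**Figure D2:**
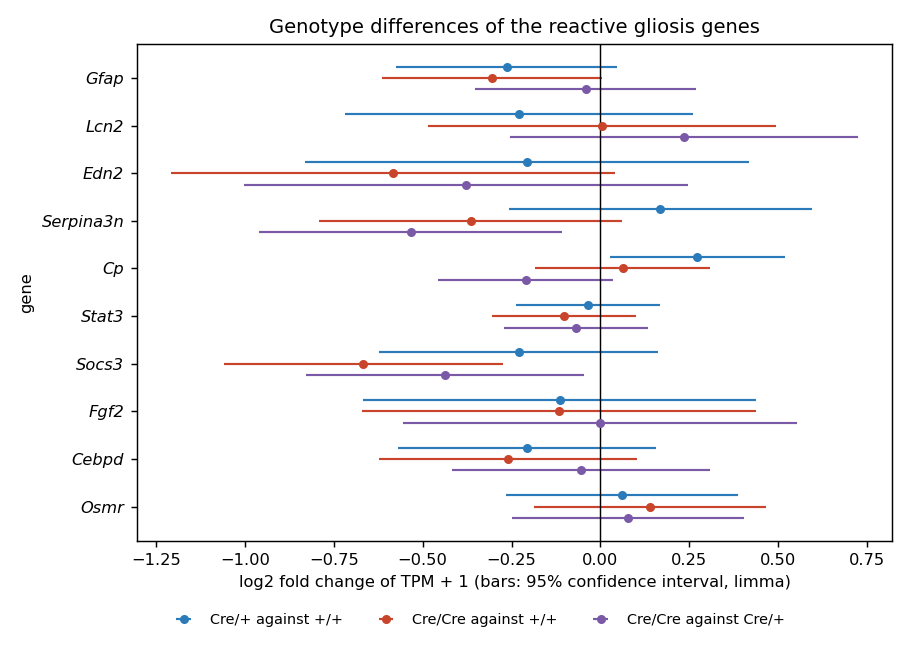
Log2 fold change of TPM + 1 for each gene in 3 comparisons of genotypes, with 95% confidence intervals from limma as bars. The interval excludes 0 for *Cp* in Cre/+ against +/+, for *Socs3* in Cre/Cre against +/+, and for *Serpina3n* and *Socs3* in Cre/Cre against Cre/+, before adjustment over all genes.

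*Osmr* encodes the receptor subunit that pairs with gp130 to bind oncostatin M. It was at 6.14, 5.05 and 4.59 TPM in +/+, at 5.42, 6.34 and 4.82 TPM in Cre/+, and at 5.54, 5.79 and 6.28 TPM in Cre/Cre. The 3 groups overlapped, and the log2 fold change was 0.14 in Cre/Cre (95% confidence interval -0.19 to 0.46, adjusted p = 0.922 in limma). Of the ligands of the family, *Il6* was listed at 0 in every library, *Osm* reached at most 0.121 TPM, and *Lif* lay between 0.323 and 0.934 TPM. *Cntf*, the ciliary neurotrophic factor, was higher, with 4.72 to 11.2 TPM, and *Clcf1* and *Ctf1*, further cytokines of the family, were at 4.19 to 5.61 TPM and 3.38 to 8.72 TPM. Of the receptor subunits, *Il6ra* was below the filter at 0.256 to 0.576 TPM, whereas *Il6st* was at 58.6 to 70.4 TPM, *Cntfr* at 42.03 to 61.8 TPM and *Lifr* at 28.5 to 39.3 TPM. Of 13 listed cytokines and receptors, 7 were tested. For none of the 7 did the unadjusted p fall under 0.05 in Cre/+ or in Cre/Cre against +/+, and the smallest adjusted p was 0.483 and 0.751.

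*Stat3*, at the centre of this route, had the smallest spread within genotypes of the 10 genes. It was measured at 46.6, 57.4 and 53.6 TPM in +/+, at 53.4, 54.6 and 45.7 TPM in Cre/+, and at 45.1, 49.9 and 51.3 TPM in Cre/Cre. The groups overlapped throughout. Its log2 fold change was -0.03 in Cre/+ (interval -0.24 to 0.17) and -0.10 in Cre/Cre (interval -0.31 to 0.10, adjusted p = 0.896 in limma).

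*Socs3*, the feedback inhibitor, showed the largest difference of the 10 genes between Cre/Cre and +/+. It was at 4.38, 5.72 and 4.07 TPM in +/+, at 3.09, 4.05 and 4.52 TPM in Cre/+, and at 3.18, 2.44 and 2.19 TPM in Cre/Cre. Every Cre/Cre library lay below every +/+ library, as for 8.05% of all tested genes, whereas Cre/+ overlapped both. The mean in Cre/Cre was 2.602 ± 0.511 TPM (SD, n = 3), 55.1% of the +/+ mean of 4.72 ± 0.879 TPM (SD, n = 3). The log2 fold change was -0.67 with a standard error of 0.19 (interval -1.06 to -0.27, unadjusted p = 0.0024, adjusted p = 0.542 in limma). In Cre/Cre against Cre/+ it was -0.44 (standard error 0.19, unadjusted p = 0.0312, adjusted p = 0.74 in limma), and in the trend -0.33 per allele (unadjusted p = 0.00219, adjusted p = 0.657 in limma). With *Xist* as a covariate the difference between Cre/Cre and +/+ was -0.80, without Cre/Cre replicate 1 -0.78, and without +/+ replicate 2, the highest library, -0.55. None of the 3 passed the adjusted threshold.

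Of 13 listed kinases, STAT factors and feedback genes of the JAK-STAT route beside the 10, 12 were tested. The log2 fold change was below 0 for 7 of the 12 in Cre/+ (median -0.02), for 9 in Cre/Cre (median -0.03) and for 10 in Cre/Cre against Cre/+ (median -0.07, against -0.03 over all genes). In Cre/Cre, 1 of the 12 had an unadjusted p under 0.05, *Stat6*, the factor of interleukin-4 signalling, with 7.72, 7.76 and 8.60 TPM in +/+, 6.09, 7.29 and 6.00 TPM in Cre/+, and 4.78, 6.31 and 4.88 TPM in Cre/Cre. Its log2 fold change was -0.52 (adjusted p = 0.542 in limma). *Stat6* was lower in all 3 libraries with low *Xist* than in any other, as were 2.38% of all tested genes. Of these 3 libraries 2 are Cre/Cre, so *Xist* level and genotype cannot be told apart in *Stat6*. *Socs2* and *Cish*, which are feedback inhibitors of the same family as *Socs3*, were at 8.86 to 11.6 TPM and at 6.41 to 9.36 TPM, with log2 fold changes in Cre/Cre of -0.09 and 0.03. Whether *Socs3* differs from them was not tested.

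*Cebpd* is a transcription factor of the acute-phase response. It was measured at 8.52, 13.6 and 8.96 TPM in +/+, at 8.83, 9.79 and 7.52 TPM in Cre/+, and at 9.50, 8.79 and 6.86 TPM in Cre/Cre. The groups overlapped, and +/+ replicate 2 stood apart from the other 8 libraries. The log2 fold change of -0.26 in Cre/Cre (interval -0.62 to 0.10, adjusted p = 0.832 in limma) was -0.06 without that library. Of the 6 other C/EBP genes listed, 5 were tested, and *Cebpg* alone had an unadjusted p under 0.05, in Cre/Cre, with 29.9, 29.9 and 31.9 TPM in +/+ and 33.2, 37.6 and 39.2 TPM in Cre/Cre (log2 fold change 0.25, adjusted p = 0.599 in limma).

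*Gfap*, the marker by which gliosis of the retina is most often judged, was highest in +/+. It was at 38.6, 45.6 and 30.0 TPM in +/+, at 31.8, 33.5 and 28.2 TPM in Cre/+, and at 27.5, 35.7 and 28.0 TPM in Cre/Cre. The means were 38.1 ± 7.82, 31.2 ± 2.71 and 30.4 ± 4.61 TPM (SD, n = 3 each), and the groups overlapped. The log2 fold change was -0.26 in Cre/+ (interval -0.57 to 0.05, adjusted p = 0.508) and -0.30 in Cre/Cre (interval -0.62 to 0.01, adjusted p = 0.727, both in limma). The upper bound of 0.01 corresponds to a ratio of 1.004 on this scale. Without +/+ replicate 2 the value in Cre/Cre was -0.17, and with *Xist* as a covariate -0.12.

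Of 8 other genes that mark reactive astrocytes in general, 5 were tested and none had an unadjusted p under 0.05 in Cre/+ or in Cre/Cre. Among them *Vim*, the intermediate filament that Müller cells make at all times, was at 158 to 202 TPM, and *Cd44*, a hyaluronan receptor, at 7.09 to 9.57 TPM. *Steap4*, *Cxcl10* and *Aspg* fell below the filter. Of 8 tested genes of the set called A1, 1 had an unadjusted p under 0.05 in Cre/+, *H2-D1*, with 77.5, 78.1 and 88.6 TPM in +/+ and 68.1, 74.5 and 68.5 TPM in Cre/+ (log2 fold change -0.21, adjusted p = 0.444 in limma), and none had in Cre/Cre. None of the 6 tested genes of the set called A2 had in either.

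Markers of Müller glia, astrocytes and microglia were examined beside *Gfap*. The 10 Müller glia markers summed to 5780 to 6416 TPM in +/+, 5948 to 6154 TPM in Cre/+ and 5267 to 6159 TPM in Cre/Cre. *Car14* was below an unadjusted p of 0.05 in Cre/Cre (log2 fold change -0.20, adjusted p = 0.702 in limma). *Apoe* was in Cre/+ (log2 fold change -0.22, adjusted p = 0.44 in limma). *Car14* was also lower in all 3 libraries with low *Xist* than in any other, as were 2.38% of all tested genes. Between Cre/Cre and Cre/+, 2 of the 10 markers were below an unadjusted p of 0.05 (*Aqp4* and *Glul*, both lower), where 6.58% of all genes were, 4.2% lower. The 6 astrocyte markers summed to 81.4 to 89.1 TPM in +/+, 73.7 to 83.9 TPM in Cre/+ and 73.7 to 87.7 TPM in Cre/Cre, so the ranges overlapped. In Cre/Cre the overlap with +/+ came from replicate 2, since replicates 1 and 3 summed to 74.4 and 73.7 TPM. In replicate 2 the astrocyte marker *Gja1* was at 14.1 TPM, against 2.16 to 3.99 TPM in the other libraries. This library also held 1050.2 TPM of lens markers, and the part of lens in its *Gja1* was not tested. Of the 5 astrocyte markers tested, *Agt*, angiotensinogen, had an unadjusted p under 0.05 in Cre/+, with 18.1, 15.7 and 18.3 TPM in +/+ and 9.51, 13.3 and 13.2 TPM in Cre/+ (log2 fold change -0.51, unadjusted p = 0.0046, adjusted p = 0.376 in limma). Its groups did not overlap, as for 10.3% of all tested genes lower in Cre/+. *Igf2*, an insulin-like growth factor, had an unadjusted p under 0.05 in Cre/Cre (log2 fold change -0.24, adjusted p = 0.662 in limma). Its Cre/Cre group overlapped with +/+. It lay below Cre/+ without overlap, as for 7.23% of all tested genes. The log2 fold change between Cre/Cre and Cre/+ was -0.31 (unadjusted p = 0.00626, adjusted p = 0.659 in limma). The 8 microglia markers summed to 76.6 to 85.1 TPM in +/+, 80.0 to 87.1 TPM in Cre/+ and 73.1 to 88.6 TPM in Cre/Cre. The part of any of these cells in the level of *Gfap* was not tested.

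**Figure D3:**
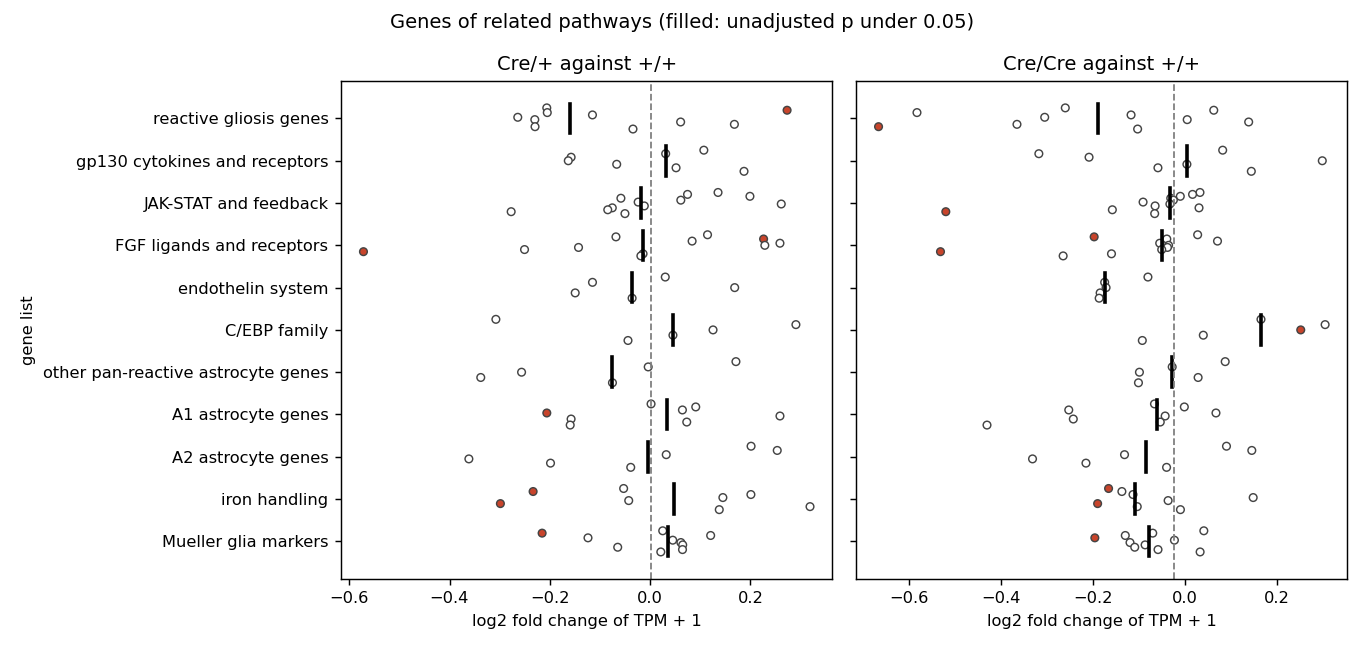
Log2 fold change of TPM + 1 in Cre/+ (left) and Cre/Cre (right) against +/+ for the tested genes of 11 lists, 1 point per gene. Filled points have an unadjusted p under 0.05, bars are list medians, and the dashed line is the median of all tested genes. The medians of the 10 reactive gliosis genes, -0.16 and -0.19, lie to the left of that line.

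*Lcn2*, lipocalin 2, which binds the iron carriers of bacteria, was at 5.49, 8.82 and 9.30 TPM in +/+, at 8.01, 7.05 and 4.61 TPM in Cre/+, and at 6.17, 10.1 and 7.33 TPM in Cre/Cre. The groups overlapped, the means of +/+ and Cre/Cre were 7.87 ± 2.08 and 7.88 ± 2.04 TPM (SD, n = 3 each), and the log2 fold change was 0.01 (interval -0.48 to 0.50, adjusted p = 0.997 in limma). Neutrophils are rich in *Lcn2*, and their 6 listed markers summed to only 0.45 to 2.05 TPM, with *S100a8* and *Ltf* listed at 0 in all 9 libraries.

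*Serpina3n*, an inhibitor of serine proteases, was at 3.69, 7.61 and 5.81 TPM in +/+, at 6.50, 6.13 and 6.29 TPM in Cre/+, and at 3.83, 5.11 and 3.35 TPM in Cre/Cre. The +/+ libraries spanned almost the full range, from below the Cre/Cre median to above all others. The 3 Cre/Cre libraries lay below the 3 Cre/+ libraries, as for 7.23% of all tested genes. Between these 2 genotypes the log2 fold change was -0.53 with a standard error of 0.20 (interval -0.96 to -0.11, unadjusted p = 0.0174, adjusted p = 0.74 in limma). The unadjusted p rose to 0.0562 without Cre/Cre replicate 1 and to 0.0754 without Cre/Cre replicate 3. With only the 6 libraries of high *Xist*, which hold 1 Cre/Cre library, the log2 fold change was -0.26 (unadjusted p = 0.429 in limma). Against +/+, the log2 fold change was -0.37 in Cre/Cre (interval -0.79 to 0.06) and 0.17 in Cre/+ (interval -0.26 to 0.59). The value in Cre/Cre was -0.16 without +/+ replicate 2 and -0.60 without +/+ replicate 1 (unadjusted p = 0.00575, adjusted p = 0.526 in limma).

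*Cp* was at 113, 109 and 101 TPM in +/+, at 130.6, 129.9 and 130.4 TPM in Cre/+, and at 89.0, 131 and 122 TPM in Cre/Cre. The 3 Cre/+ libraries lay above the 3 +/+ libraries, as for 11.9% of all tested genes, and differed among themselves by less than 1 TPM, whereas the Cre/Cre libraries spread over the whole range. In Cre/+ the log2 fold change was 0.27 with a standard error of 0.11 (interval 0.03 to 0.52, unadjusted p = 0.0322, adjusted p = 0.429 in limma), a ratio of 1.21. In Cre/Cre it was 0.06 (interval -0.18 to 0.31). The lowest value was that of Cre/Cre replicate 1, the library with 9.21% Rn45s, and without this library the log2 fold change in Cre/Cre was 0.23 (unadjusted p = 0.00442, adjusted p = 0.4 in limma).

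The other genes of iron handling gave 2 with an unadjusted p under 0.05 in Cre/+ and 2 in Cre/Cre among 8 tested, all lower. Over all genes 10.7% did in Cre/+ and 6.97% in Cre/Cre. Whether these counts differ from those shares was not tested. *Slc22a17*, which encodes a cell-surface receptor for lipocalin 2, was at 215, 232 and 240 TPM in +/+, at 185, 186 and 187 TPM in Cre/+, and at 202, 210 and 190 TPM in Cre/Cre. Its log2 fold change was -0.30 in Cre/+ (adjusted p = 0.319) and -0.19 in Cre/Cre (adjusted p = 0.655, both in limma). The ferritin light chain *Ftl1* had a log2 fold change of -0.23 in Cre/+ and the heavy chain *Fth1* of -0.17 in Cre/Cre. *Heph* and *Slc40a1*, the ferroxidase and the iron exporter that work beside *Cp*, were at 4.07 to 7.85 TPM and at 2.999 to 5.85 TPM. Their log2 fold changes in Cre/+ of 0.20 and 0.32 did not pass even the unadjusted threshold. Between Cre/Cre and Cre/+, 1 of the 8 passed it, *Slc40a1* (log2 fold change -0.42, unadjusted p = 0.0346, adjusted p = 0.74 in limma), where 6.58% of all genes did. *Heph* and *Slc40a1* were lower in Cre/Cre than in Cre/+ without overlap, as were 7.23% of all tested genes.

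*Edn2* showed the widest spread of the 10 genes, 2.92-fold from the lowest to the highest library. It was at 16.4, 26.5 and 15.6 TPM in +/+, at 19.0, 17.5 and 13.0 TPM in Cre/+, and at 11.8, 17.3 and 9.06 TPM in Cre/Cre. The groups overlapped. The mean in Cre/Cre was 12.7 ± 4.17 TPM, 65.3% of the +/+ mean of 19.5 ± 6.05 TPM (SD, n = 3 each), and the log2 fold change was -0.58 (interval -1.21 to 0.04, adjusted p = 0.751 in limma). The trend of -0.29 per allele had an unadjusted p of 0.0376 and an adjusted p of 0.778 in limma. With *Xist* as a covariate the trend was -0.11 and the difference in Cre/Cre -0.21. Without +/+ replicate 2 the difference in Cre/Cre was -0.35, and without Cre/Cre replicate 3 it was -0.38. Of the rest of the endothelin system, *Edn1* was at 1.29 to 4.33 TPM, the receptor *Ednrb*, which glia carry, at 5.86 to 9.09 TPM, and the converting enzymes *Ece1* and *Ece2* at 30.3 to 39.3 TPM and 33.9 to 47.8 TPM. None of the 5 tested had an unadjusted p under 0.05 in Cre/+ or in Cre/Cre.

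*Fgf2*, a growth factor that protects photoreceptors, was at 11.1, 17.3 and 8.17 TPM in +/+, at 14.5, 8.62 and 9.71 TPM in Cre/+, and at 11.4, 11.2 and 9.52 TPM in Cre/Cre. The +/+ libraries alone spanned the range of all others, with a coefficient of variation of 38.1%. The log2 fold change was -0.11 in Cre/+ and -0.12 in Cre/Cre (interval -0.67 to 0.44 for each), and without +/+ replicate 2 it turned to 0.15 in both. Of 13 other genes of the FGF family, its receptors and their feedback, 11 were tested. *Spry1*, a feedback inhibitor of FGF receptors, was lowest in the knock-in libraries, with 11.9, 9.30 and 12.1 TPM in +/+, 7.10, 7.15 and 7.01 TPM in Cre/+, and 8.03, 8.26 and 5.86 TPM in Cre/Cre. Neither knock-in group overlapped with +/+, as for 10.3% of all tested genes lower in Cre/+ and 8.05% lower in Cre/Cre, whereas the Cre/+ libraries lay within the range of Cre/Cre. Its log2 fold change was -0.57 in Cre/+ (unadjusted p = 0.00135, adjusted p = 0.327) and -0.53 in Cre/Cre (unadjusted p = 0.00239, adjusted p = 0.542, both in limma). *Spry2*, *Spry4* and *Dusp6*, which also respond to FGF, had log2 fold changes in Cre/+ of -0.01, -0.02 and 0.11. In Cre/Cre their means were 90.1%, 82.5% and 104.5% of the +/+ mean, against 66.6% for *Spry1*, and their groups overlapped with +/+. Against +/+, *Fgf12* (0.23 in Cre/+) and *Fgf1* (-0.20 in Cre/Cre) were the other genes of this list with an unadjusted p under 0.05. Between Cre/Cre and Cre/+ these were *Fgf12* (-0.27), *Fgf9* (-0.26) and *Fgf14* (-0.31).

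Over the lists as a whole, 128 genes were tested beside the 10. Of these, *Hbb-bt*, a beta-globin gene whose reads can be shared with its near-identical neighbours, passed the adjusted threshold in Cre/+ against +/+ and in Cre/Cre against Cre/+, and *Rbpms* passed it in Cre/Cre against +/+ (log2 fold change -0.96, adjusted p = 0.000581 in limma). Neither belongs to a list of gliosis or of its signalling. In Cre/Cre against +/+, 5 of 6 RGC markers had an unadjusted p under 0.05, all lower, where 6.97% of all genes did, 5.39% lower. The 5 include *Rbpms* itself, which carries the knock-in. The 6 markers summed to 945 to 1129 TPM in Cre/Cre against 1288 to 1327 TPM in +/+. The lowest sum was that of Cre/Cre replicate 1, the library with 9.21% Rn45s. Cre/Cre replicates 2 and 3, with 0.211% and 0.0909% Rn45s, summed to 1129 and 1087 TPM. The Cre/+ libraries summed to 1222 to 1256.5 TPM. Between Cre/Cre and Cre/+, 5 of the 6 markers had an unadjusted p under 0.05, all lower, where 6.58% of all genes did. The part of the RGC markers in the values of the 10 genes was not tested.

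The extreme values of the 10 genes fell in few libraries. In +/+ replicate 2, 7 of the 10 genes reached their highest level of all 9 libraries (*Gfap*, *Edn2*, *Serpina3n*, *Stat3*, *Socs3*, *Fgf2*, *Cebpd*), whereas 8.03% of all tested genes did. The median deviation of the 10 genes from their own means was 0.47 in this library on the log2(TPM + 1) scale, and that of all tested genes was -0.02. *Cp* and *Osmr* were below their means there. At the other end, Cre/Cre replicate 3 held the lowest value of *Edn2*, *Serpina3n*, *Socs3* and *Cebpd*, where 6.07% of all genes had their lowest value, and Cre/Cre replicate 1 that of *Gfap*, *Cp* and *Stat3*, where 38.6% of all genes did.

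**Figure D4:**
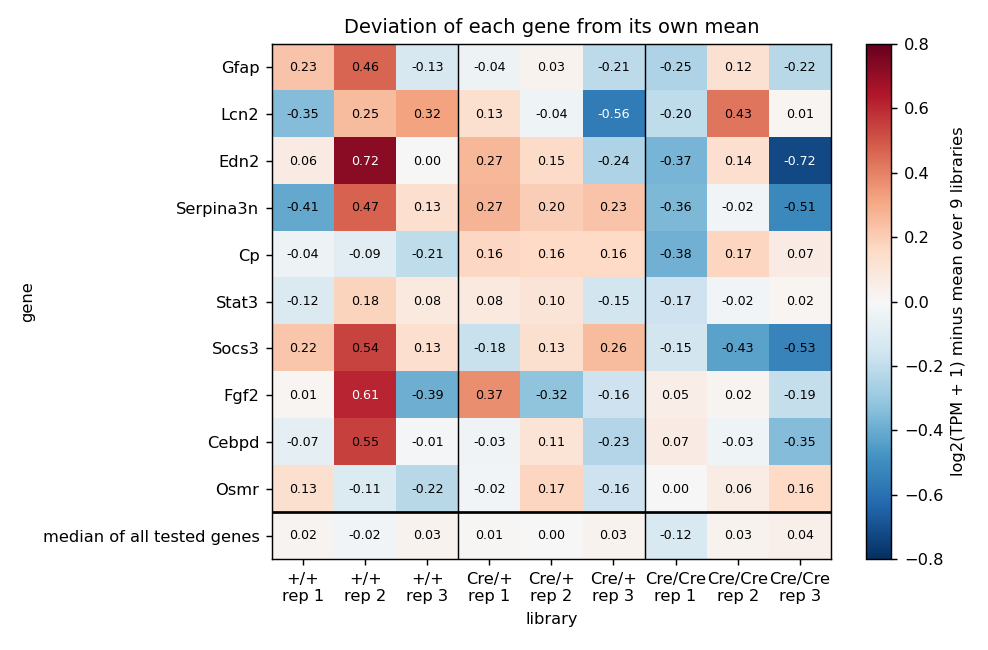
Deviation of each gene's log2(TPM + 1) from its own mean over the 9 libraries, with the median over all tested genes in the bottom row. The column of +/+ replicate 2 is above 0 for 8 of the 10 genes, up to 0.72 for *Edn2*, and that of Cre/Cre replicate 3 reaches -0.72 for the same gene.

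*Gfap* and *Edn2* were lowest in the libraries with low *Xist*. *Gfap* was at 27.5 to 28.2 TPM in the 3 libraries with low *Xist* and at 30.0 to 45.6 TPM in the other 6, and *Edn2* at 9.06 to 13.0 TPM against 15.6 to 26.5 TPM. These 2 of the 10 genes were lower in all 3 libraries with low *Xist* than in any other, as were 2.38% of all tested genes. Among the 6 libraries with high *Xist* alone, which include a single Cre/Cre library that is assumed to vary like the others, the log2 fold change in Cre/Cre was -0.07 for *Gfap* and -0.13 for *Edn2*, against -0.73 for *Socs3* (adjusted p = 0.697 in limma). For *Cp* in Cre/+ it was 0.27 (adjusted p = 0.317 in limma). The sex of the animals is not in the labels used here, and 2 of the 3 libraries with low *Xist* are Cre/Cre, so the part of *Xist* level and of genotype in *Gfap* and *Edn2* cannot be told apart.

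The residual SD of log2(TPM + 1) within genotypes was above the median of all tested genes, 0.13, for 9 of the 10 genes, the exception being *Stat3*. It was highest for *Edn2* (0.374, above 93.7% of tested genes), *Fgf2* (0.364) and *Lcn2* (0.349). The spread was not compared with that of genes of like level, and it includes differences in *Xist* level within Cre/+ and Cre/Cre. Over the 9 libraries, 34 of the 45 pairs among the 10 genes had a positive Pearson correlation, with a median r of 0.30, and of 0.19 over the 8 libraries without +/+ replicate 2. These points share the depth and the RNA makeup of each library, and the values are descriptive. The closest pair was *Gfap* and *Edn2* (r = 0.84 over 9 libraries, 0.70 over 8), followed by *Edn2* and *Cebpd* (0.82 and 0.66), and the most opposed was *Serpina3n* and *Osmr* (r = -0.57).

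For each of the 10 genes, the genes most alike over the 9 libraries were sought among those with a mean of at least 5 TPM, 12371 candidates (12372 for *Socs3*), which makes high values of r common. For *Gfap* the closest was *Car14*, a carbonic anhydrase of Müller cells (r = 0.98, and 0.95 without +/+ replicate 2), then *Pde6h* (0.95) and *Arhgef4* (0.92). *Car14* ranged from 119 TPM in Cre/Cre replicate 1 to 159 TPM in +/+ replicate 2, the same libraries as the lowest and highest *Gfap*. For *Socs3* the closest were *Hspa1a*, the inducible Hsp70 (r = 0.96, and 0.95 without +/+ replicate 2), *Ahsa1*, an activator of Hsp90 (0.96), and *Adrb1*, the beta-1 adrenergic receptor (0.92). *Hspa1a* was at 73.2, 83.4 and 76.4 TPM in +/+, at 70.5, 77.0 and 79.0 TPM in Cre/+, and at 71.5, 62.2 and 58.9 TPM in Cre/Cre. This gene was picked for its likeness to *Socs3* in the same libraries, so its levels add no separate evidence.

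**Figure D5:**
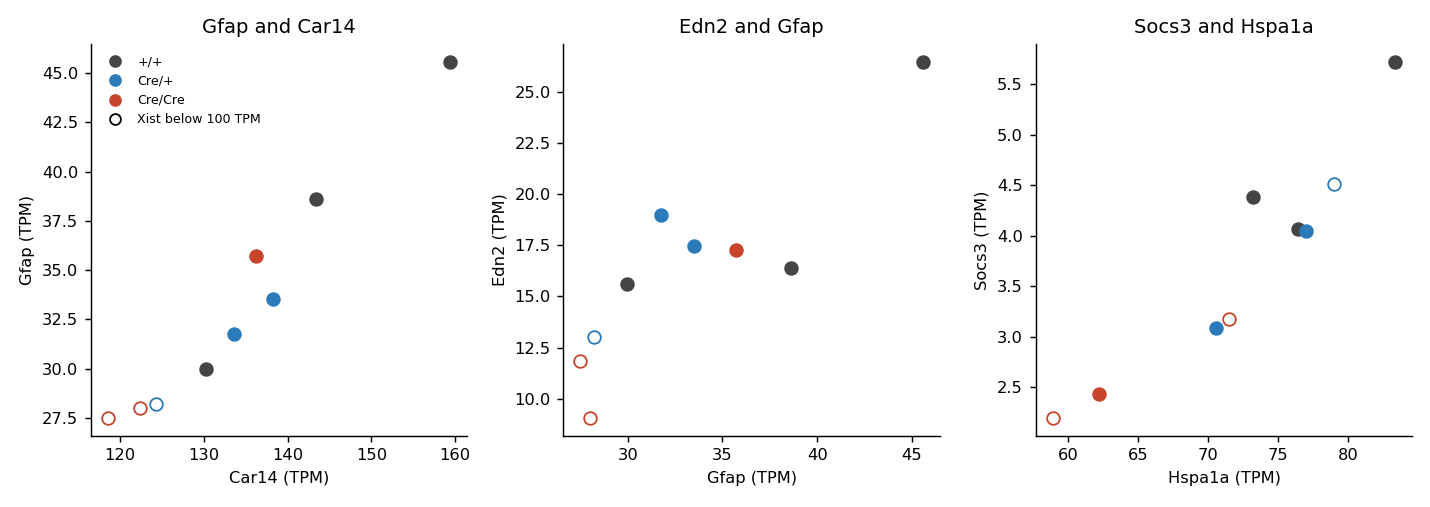
TPM of *Gfap* against *Car14*, of *Edn2* against *Gfap*, and of *Socs3* against *Hspa1a*, 1 point per library. In the first 2 panels the 3 open points, the libraries with low *Xist*, sit at the lower left, and in all 3 panels +/+ replicate 2 is the point at the upper right.

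The closest partners of the other genes were *Ndufab1* for *Lcn2* (r = 0.97), *Spag7* for *Edn2* (0.94), *Kctd2* for *Serpina3n* (0.98), *Zfp719* for *Cp* (0.99), *Etfrf1* for *Stat3* (0.95), *Ppp1r14b* for *Fgf2* (0.93), *Pgm2* for *Cebpd* (0.93) and *Mir5121* for *Osmr* (0.93). None of the 30 closest partners was itself one of the 10 genes. For *Pgm2* the value was 0.79 without +/+ replicate 2, whereas for *Kctd2* and *Zfp719* it was 0.99 with this library left out.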

How the data were processed

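Strand-specific, poly(A)-selected libraries were made from the whole retinas of 9 mice and sequenced as paired reads of 150 bases. Reads were trimmed (Trimmomatic), aligned to mm10 (HISAT2) and quantified per gene (StringTie) by the authors. Versions and the gene annotation are not given in the sources used here. The deposited TPM are StringTie's levels per gene length, scaled to a common total. The deposited FPKM are its levels per length and depth before that scaling, and the deposited coverage gives how many reads lie over an average base of a gene. Without read counts in the tables, tests on counts (the authors' DESeq2, and edgeR) were not run, and counting error per gene is unknown. Aligned bases were taken from the ratio of coverage to FPKM.

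Here TPM were summed by gene name (162 to 200 names filled several rows), and genes with a mean of at least 1 TPM were tested with limma 3.58.1 in R 4.3.3 (trend, robust prior) on log2(TPM + 1). The model held all 9 libraries and genotype alone, which leaves 6 residual degrees of freedom, and p-values were adjusted by Benjamini-Hochberg over all genes at a limit of 0.05. The script was tested on simulated data. The 10 genes and 21 lists of other genes (174 genes, of which *Tf* was not found under that symbol and 128 were tested) were chosen with earlier results of these data known. The genes named in the text are the 10, the genes of the lists, *Rbpms*, genes past the adjusted limit, and for each of the 10 the 3 genes of highest Pearson r. Rn45s, *Xist*, *Hps3* and *Spidr* were named after their values were seen.

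Alternatives were a pseudocount of 0.1, no filter or one of 5 TPM, FPKM, scaling by the median ratio, *Xist* as a covariate, the replicate number as a block, only the genotypes compared, no robust prior, and each library left out in turn. Fitting only the 6 libraries with *Xist* above 100 TPM was chosen after seeing the data. Python 3.11.15 and matplotlib 3.10.9 drew the figures.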

Additional observations from a re-analysis of the deposited data

Results flagged for a closer look

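*Cebpd* in +/+ replicate 2, at 13.6 TPM, was the only value among 20 checks of the 10 genes (the highest and the lowest of 9 libraries each) whose gap to its nearest neighbour, 9.79 TPM, was too large a share of the whole range by Dixon's criterion at 95%. Chance gives about 1 such value in 20 groups of 9 like libraries with both ends checked. The 20 checks are the 2 ends of 10 such groups, and each group here holds 3 genotypes. The checks are not independent, since the same library held the highest value of 6 more of the 10 genes. Without it the +/+ libraries had 8.52 and 8.96 TPM, within the range of Cre/+ (7.52 to 9.79 TPM).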

How the results depend on the processing

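Under every alternative run, 0 of the 10 genes passed the adjusted limit in any comparison, and the smallest adjusted p of a member was 0.128. Of 746 fold changes recomputed over 40 results, 709 kept their direction. The number of the 10 genes with an unadjusted p under 0.05 lay between 0 and 2 in Cre/+, 1 and 4 in Cre/Cre, 0 and 3 in Cre/Cre against Cre/+, 1 and 5 for any difference, and 1 and 3 in the trend. *Socs3* in Cre/Cre kept an unadjusted p under 0.05 in all 18 alternatives in which it was tested (log2 fold change -0.84 to -0.46). A filter of 5 TPM left *Socs3* out. The alternatives refit the same libraries or a part of them, and *Socs3* was singled out in those libraries, so its count adds no separate evidence. *Cp* in Cre/+ lost it with FPKM and without +/+ replicate 2 or 3 or any 1 of the Cre/+ libraries, with log2 fold changes of 0.23 to 0.28. *Socs3* in Cre/Cre against Cre/+ lost it with median-ratio scaling, with high *Xist* only, and without Cre/+ replicate 2 or 3 or Cre/Cre replicate 2 or 3. *Edn2* in the trend lost it with median-ratio scaling, with either *Xist* alternative, and without +/+ replicate 2, Cre/+ replicate 2 or Cre/Cre replicate 1 or 3. Over all 15198 genes, median-ratio scaling gave 1225 higher and 1187 lower at an unadjusted p under 0.05 in Cre/+ (744 and 884 before). In Cre/Cre it gave 556 and 717 (240 and 819 before). These counts moved with other alternatives too. In Cre/+ they were 345 and 438 without +/+ replicate 3, and 1378 and 1184 with only the genotypes compared. In Cre/Cre they were 151 and 605 without +/+ replicate 2, and 896 and 544 without Cre/Cre replicate 1. For the other comparisons the counts over all genes under the alternatives are not given here.

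Direction turned in Cre/Cre against Cre/+ for *Gfap* with *Xist* as a covariate (0.055) and with high *Xist* only (0.13), *Cp* (0.0090) and *Osmr* (-0.016) with high *Xist* only, *Cebpd* with *Xist* as a covariate (0.0063), and *Fgf2* with a pseudocount of 0.1 (0.000280), median-ratio scaling (0.031) and *Xist* as a covariate (0.045). It turned for *Stat3* in Cre/+ with *Xist* as a covariate (0.013) and with high *Xist* only (0.045), and for *Lcn2* with FPKM in Cre/Cre (-0.031) and in the trend (-0.016). With 1 library left out, values ran from -0.16 to 0.024 for *Gfap*, -0.14 to 0.20 for *Fgf2*, -0.15 to 0.069 for *Cebpd* and -0.000665 to 0.17 for *Osmr* in Cre/Cre against Cre/+. In Cre/Cre they ran from -0.21 to 0.15 for *Lcn2*, -0.046 to 0.23 for *Cp* and -0.35 to 0.15 for *Fgf2*. In Cre/+ they ran from -0.34 to 0.025 for *Edn2*, -0.068 to 0.37 for *Serpina3n*, -0.12 to 0.045 for *Stat3*, -0.35 to 0.15 for *Fgf2* and -0.027 to 0.16 for *Osmr*, and in the trend from -0.096 to 0.077 for *Lcn2*, -0.0084 to 0.13 for *Cp* and -0.16 to 0.068 for *Fgf2*. The cause of these turns was not tested.

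Among the 128 other genes, the number past the adjusted limit was 0 in Cre/+ with FPKM (1 before), 2 in Cre/Cre with high *Xist* only (1 before), 2 in Cre/Cre against Cre/+ with a filter of 5 TPM, FPKM or *Xist* as a covariate (1 before), and 1 for any difference with FPKM (2 before). With 1 library left out it was 0 to 1 in Cre/+, 1 to 2 in Cre/Cre and 1 to 2 in Cre/Cre against Cre/+. Replicate numbers were not treated as pairs, since 1 of 9 same-numbered pairs had a correlation of deviations over 0.1 (-0.116 to 0.128) and 3 of 9 libraries correlated best with their own number. With the replicate block, 0 of the 10 genes passed the adjusted limit. An unadjusted p under 0.05 was reached by 2 in Cre/+, 3 in Cre/Cre and 4 for any difference. Over all 15198 genes, 636 were higher and 860 lower at that limit in Cre/+, and 220 and 796 in Cre/Cre. With 3 libraries a genotype, the standard error was up to 0.271 (*Edn2*), and no difference of the 10 genes passed adjustment over 15198 genes.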
